A study of Mus musculus with 6 samples.

Results

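The genes described here belong to groups in which many, but not all, proteins help choose which exons enter a messenger RNA. The groups are the serine/arginine-rich (SR) factors, the heterogeneous nuclear ribonucleoproteins (hnRNPs), the CDC-like kinases (CLKs) and the numbered RNA-binding motif (RBM) proteins. The genes were taken by name from the table of 28368 genes: symbols starting with Srsf, Hnrnp or Rbm and ending in the numbers or letters of those families, and Clk1 to Clk4. Rbm3 was left out of the set, and a summed count of at least 15 over the 6 libraries was required. This gave 66 genes, of which 10 were SR, 20 hnRNP, 4 CLK and 32 RBM genes. The rule uses names and summed counts and no difference between the groups, but it was set with earlier results of these data known. At the edge of the count rule, Rbm24 entered with a summed count of 18 and Rbm44 stayed out with 10.

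The libraries came from polyadenylated RNA of whole mouse tumours, 3 taken 12 h after the therapy the labels call MS-DF-MS and 3 from untreated mice. The series title describes implanted depots that release first an agonist of STING, an adaptor of cytosolic DNA sensing, and then an inducer of apoptosis. The labels name no drug, strain, age or tumour type, and no group carried an empty depot, so drug and implant cannot be told apart. They do not state that each library is a separate animal, so a p-value here covers only variation among these libraries, some of which can be technical.

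SR proteins bind short enhancer sequences in exons through RNA recognition motifs and recruit the splicing machinery through domains rich in arginine and serine. Many hnRNPs bind silencer sequences and oppose them, and CLKs phosphorylate SR proteins and release them from nuclear speckles. RBM is a naming class whose members have varied roles in splicing, RNA decay and translation. Many SR and hnRNP genes limit their own mRNA by including an exon that sends it to nonsense-mediated decay, which counts per gene do not show.

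Library totals ran from 57017043 to 66634551 counts. On the first principal component of log2 expression, treated 3 scored 72.9 and the remaining 5 libraries scored from -37.9 to 13.3. Levels below are in CPM, counts relative to the library total scaled by TMM, edgeR's trimmed-mean factors, unless they are given as FPKM, the authors' value per gene length. Differences are log2 fold changes of treated over control ± SE from edgeR's quasi-likelihood test over all 18049 genes tested, called at a Benjamini-Hochberg adjusted p under 0.05. Tumour tissue holds many cell types, so fewer cells of a type and less RNA per cell cannot be told apart.

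Srsf5, Srsf2, Srsf6, Hnrnpdl and Rbm25 passed the threshold, and each was lower in the treated tumours. Of the 66 genes 65 were tested, Rbm24 having too few counts. The 5 calls are 7.69% of the 65, where 0.249% of all genes tested were called lower. None of the 65 was called higher by edgeR, where 1.36% of all genes were. At an unadjusted p under 0.05, 13 of the 65 were lower and 6 (9.23%) higher, against 6.90% and 9.12% of all genes. Other tools called more genes, in the set and outside it. DESeq2 called 9 of the set lower, and 2 higher (Rbm43 and Rbm4), against 2.41% lower and 4.95% higher of the 15237 genes to which it gave an adjusted p. Limma-voom weighted by sample quality called the same 11 genes, with 1.06% of all genes lower and 3.33% higher. Unweighted limma-voom called 6 lower and 0 higher, with 0.244% and 1.21% of all genes. The treated libraries lay entirely below the controls for 17 of the 65 (26.2%, against 11.2% of all genes) and entirely above for 7 (10.8%, against 12.0%). Over the 65 genes 40 log2 fold changes were negative, with a median of -0.04 against -0.003 over all genes.

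These counts turned on single libraries, and each leave-out fit had fewer samples. With a library left out, the log2 fold changes of the 5 called genes stayed negative. They ran from -0.75 to -0.56 for Srsf5, -0.52 to -0.40 for Srsf2 and -0.51 to -0.37 for Srsf6. For Hnrnpdl they ran from -0.59 to -0.45 and for Rbm25 from -0.44 to -0.35. The number called lower was 5 without treated 3, 1 without treated 1, 2 without control 1, and 0 by edgeR without treated 2, control 2 or control 3. In the same order, edgeR called 0.208%, 0.182%, 0.0481%, 0.0319%, 0.0160% and 0.0374% of all genes lower. The number called over all genes in either direction also dropped, from 291 (1.61%) to 126 without treated 2 and to 136, 97 and 120 without controls 1, 2 and 3. Control 3, the library with the fewest counts, held the highest control value for 50 of the 65 genes (76.9%), against 37.3% of all genes. That was so for 10 of 10 SR and 18 of 20 hnRNP genes. With the replicate number as a block, edgeR called 2 of the set and 0.0776% of all genes lower. The other scalings and filters called 4 to 8 of the set lower. The share of all genes called lower was 0.249% with RLE factors, 0.332% with upper quartile factors, 0.344% with library totals, 0.165% without filterByExpr and 0.646% with at least 1 CPM in all 6 libraries. That last filter called 1 of the set higher (Rbm43) and 2.39% of all genes, and leaving out treated 3 likewise called Rbm43 higher, with 1.64% of all genes. Without control 3 the median of the 65 was 0.005, with 30 of them negative. The part of this library in the lower values of the treated group was not tested beyond leaving it out.

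**Figure D1:**
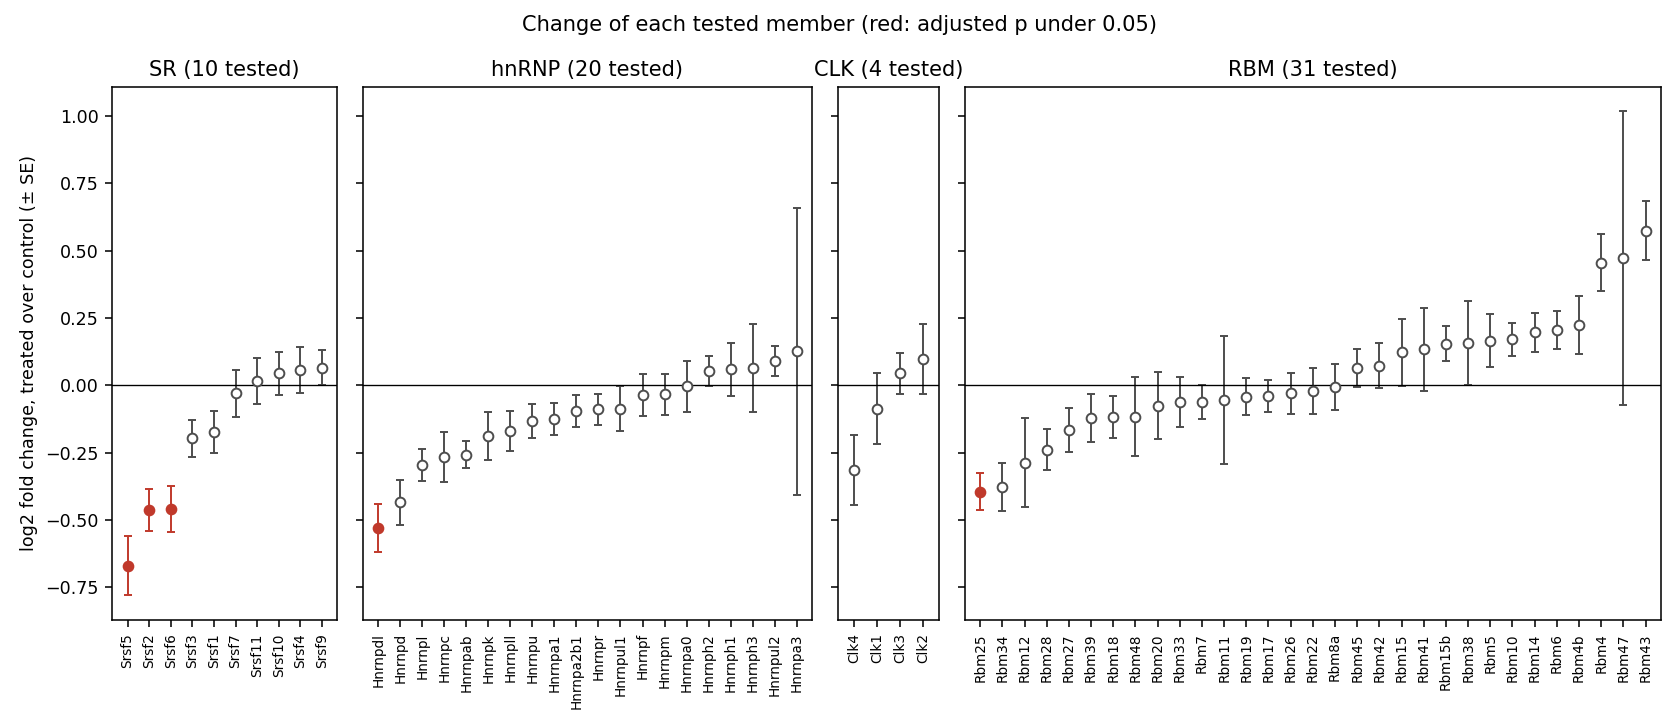
Log2 fold change of treated over control (y axis, ± SE of the edgeR fit over 3 against 3 libraries) for each tested gene, in a panel per family, ordered by value. Filled red points passed an adjusted p of 0.05, and these are 3 SR genes, Hnrnpdl and Rbm25, all below 0.

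Of 10 SR genes 3 fell (30%, against 0.249% of all genes called lower) and 7 did not pass the threshold. The levels of the family summed to 2281, 2197 and 2361 CPM in treated 1, 2 and 3 and to 2554, 2763 and 3014 CPM in controls 1, 2 and 3. The median log2 fold change was -0.10, and it was -0.02, -0.16 and -0.10 in treated 1, 2 and 3 taken singly against the control mean. The 3 genes that fell are compared first.

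Srsf5, also known as SRp40, lies on chromosome 12 from 80945504 to 80950507 (ENSMUSG00000021134, plus strand, whole gene). It stood at 214, 263 and 281 CPM in treated 1, 2 and 3 and at 368, 403 and 436 CPM in controls 1, 2 and 3. The groups did not overlap, and the lowest value was in treated 1. Srsf5 fell 1.59-fold (log2 fold change -0.67 ± 0.11, n = 3, edgeR adjusted p = 0.0276). It was also called without treated 1 (0.0263) and treated 3 (0.0205), whereas edgeR gave adjusted p values of 0.114 without treated 2 and 0.0704, 0.15 and 0.129 without control 1, 2 or 3.

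Srsf2, or SC35, a classical marker of nuclear speckles, lies on the minus strand of chromosome 11 from 116849901 to 116853094 (ENSMUSG00000034120). Its values were 341, 312 and 355 CPM in the treated and 423, 468 and 499 CPM in the control libraries. The treated values lay close together, below all controls. Srsf2 fell 1.38-fold (-0.46 ± 0.08, n = 3, edgeR adjusted p = 0.032), with the call kept without treated 3 (0.0402) and control 1 (0.0485). It was lost without treated 1 (edgeR adjusted p = 0.0621), treated 2 (0.136), control 2 (0.188) and control 3 (0.124). Mettl23 and Mfsd11 on the opposite strand share 3194 and 655 bases with Srsf2. They hold 4.26% and 13.5% of its count and had differences of 0.41 ± 0.16 and 0.25 ± 0.09, neither called (edgeR adjusted p = 0.26 and 0.245). Whether reads were counted by strand is not given in the sources used here.

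Srsf6, or SRp55, lies on the plus strand of chromosome 2 from 162931528 to 162937121 (ENSMUSG00000016921). It stood at 294, 277 and 319 CPM in the treated and 376, 396 and 452 CPM in the control libraries. The groups did not overlap, and the widest gap within a group was between control 3 and the other controls. Srsf6 fell 1.37-fold (-0.46 ± 0.09, n = 3, edgeR adjusted p = 0.0465). Among the leave-outs its call held only without treated 3 (0.0447). Without treated 1 and 2 and controls 1, 2 and 3 the edgeR adjusted p was 0.0907, 0.18, 0.0798, 0.193 and 0.134.

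The sequences before the starts of these 3 genes are shown because the genes were lower together. Each run is the 250 bases upstream of the RefSeq start (GRCm38.p6), 5′ to 3′ on the gene's strand, at chr11:116853095-116853344 for Srsf2, chr12:80945249-80945498 for Srsf5 and chr2:162931258-162931507 for Srsf6. Capitals mark matches to any of the motifs searched.
Srsf2: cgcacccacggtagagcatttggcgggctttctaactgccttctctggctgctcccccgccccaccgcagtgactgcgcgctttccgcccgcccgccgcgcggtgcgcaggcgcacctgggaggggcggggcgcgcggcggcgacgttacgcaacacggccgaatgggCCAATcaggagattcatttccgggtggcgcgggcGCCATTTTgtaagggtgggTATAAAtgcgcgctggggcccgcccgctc
Srsf5: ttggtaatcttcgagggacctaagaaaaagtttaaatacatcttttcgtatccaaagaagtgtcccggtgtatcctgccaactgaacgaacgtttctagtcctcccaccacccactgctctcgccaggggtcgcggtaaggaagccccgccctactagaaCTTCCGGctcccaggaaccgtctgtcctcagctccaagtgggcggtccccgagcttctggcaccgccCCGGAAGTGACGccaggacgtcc
Srsf6: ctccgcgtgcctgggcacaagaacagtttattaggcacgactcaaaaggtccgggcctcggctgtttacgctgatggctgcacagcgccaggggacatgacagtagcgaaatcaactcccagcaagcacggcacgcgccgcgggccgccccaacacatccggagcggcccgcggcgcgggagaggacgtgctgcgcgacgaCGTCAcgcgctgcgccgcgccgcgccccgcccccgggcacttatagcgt
Searched on both strands were the cAMP response element core TGACG, the box CCAAT bound by the factor NF-Y, the ETS site CCGGAAG, the YY1 site GCCATNTT, the pair of heat shock element units GAANNTTC, the TATA box TATAAA and GAAA repeated after a gap of 2 bases (the core of an interferon response element). No motif was found in all 3 runs. Srsf2 held CCAAT 82, GCCATTTT 48 and TATAAA 29 bases before the start. Srsf5 held CCGGAAG at 90 (opposite strand) and 23 bases and TGACG at 16 bases, with no base between the last 2. Srsf6 held TGACG at 49 bases on the opposite strand. TGACG occurred in 17.8% of all 32851 RefSeq windows of this length, CCAAT in 33.8%, CCGGAAG in 6.91%, GCCATNTT in 3.91% and TATAAA in 12.4%. The heat shock pair (6.69% of all windows) and the interferon core (2.98%) had no match in these 3 runs. Of the 66 genes 42 had a window that holds the start given in the deposited table, with a median of 59.6% G and C against 52.4% for all windows. Among those 42, TGACG was in 18 (42.9%), CCAAT in 22 (52.4%) and CCGGAAG in 10 (23.8%). GCCATNTT was in 4 (9.52%) and TATAAA in 5 (11.9%). The heat shock pair (Rbm45 and Srsf9) and the interferon core (Rbm43 and Rbm41) were each in 2 (4.76%). The RefSeq windows of Hnrnpdl and Rbm25 do not hold the table's start and are not shown.

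The 7 other SR genes had log2 fold changes from -0.20 (Srsf3) to 0.06 (Srsf9). Srsf3, the smallest SR protein and an adaptor of mRNA export, stood at 411, 434 and 428 CPM in the treated and 446, 490 and 523 CPM in the control libraries. Its groups did not overlap, but its difference of -0.20 ± 0.07 missed the threshold (n = 3, edgeR adjusted p = 0.223). Srsf1, the founding member, followed Srsf2 and Srsf5 in level at 69.5 FPKM and had -0.17 ± 0.08 (edgeR adjusted p = 0.335). Srsf4, Srsf7, Srsf9, Srsf10 and Srsf11 lay between -0.03 and 0.06, each with overlapping groups. The lowest of the SR genes in level, Srsf11, had a mean of 11.5 FPKM and the highest, Srsf2, 119.6 FPKM.

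**Figure D2:**
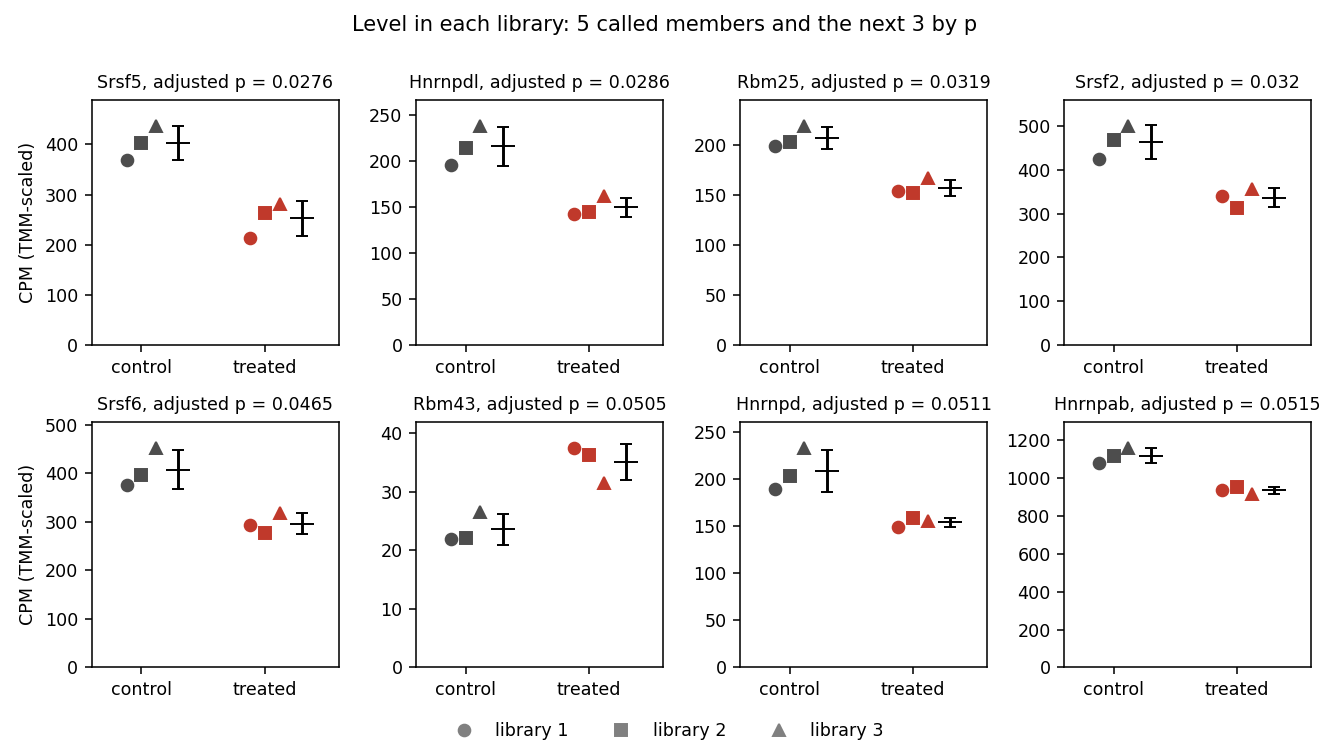
CPM in each library (y axes from 0) for the 5 called genes and the 3 next by p, with control libraries in grey and treated in red, a symbol per library number, and the mean ± SD of 3 libraries beside them. In all panels but Rbm43 the treated libraries lie below the controls, as for Srsf5 at 214 to 281 against 368 to 436 CPM.

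Hnrnpdl alone passed the threshold among 20 hnRNP genes (5%, against 0.249% of all genes called lower). Of the 20 log2 fold changes 15 were negative, with a median of -0.09. In 8 genes the treated libraries lay below all controls (40.0%, against 11.2% of all genes) and in 1, Hnrnpul2, above. Hnrnpdl is a close relative of hnRNP D that binds RNA in nucleus and cytoplasm. It lies on the minus strand of chromosome 5 from 100033577 to 100039664 (ENSMUSG00000029328). It stood at 143, 144 and 162 CPM in the treated and 196, 214 and 238 CPM in the control libraries, with no overlap. Hnrnpdl fell 1.44-fold (-0.53 ± 0.09, n = 3, edgeR adjusted p = 0.0286). The call was kept without treated 3 (0.0273) and control 1 (0.0458) and lost without treated 1 (edgeR adjusted p = 0.0683), treated 2 (0.137), control 2 (0.157) and control 3 (0.105).

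Hnrnpd, or AUF1, which binds AU-rich elements and directs mRNA decay, also lies on chromosome 5, from 99955935 to 99978938. It stood at 149, 159 and 155 CPM in the treated and 190 (189.5), 203 and 233 CPM in the control libraries. The difference of -0.44 ± 0.08 missed the threshold narrowly (n = 3, edgeR adjusted p = 0.0511). Hnrnpab, a further relative of hnRNP D and the most abundant of the 66 genes at 327 FPKM, stood at 940.1, 954 and 915 CPM against 1083, 1119 and 1160 (1159.8) CPM. Its difference was small and its libraries close together (-0.26 ± 0.05, edgeR adjusted p = 0.0515). Hnrnpl, which binds CA repeats, stood at 298, 282 and 295 CPM against 348, 347 and 379 CPM (-0.30 ± 0.06, edgeR adjusted p = 0.0609). For Hnrnpd, Hnrnpab and Hnrnpl the treated and control libraries did not overlap. Limma-voom with sample quality weights and DESeq2 called these 3 genes lower.

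Hnrnpa1, which binds splicing silencers and is second in level at 230.3 FPKM, stood at 780.3, 786 and 789 CPM against 798, 861 and 909.7 CPM. The gap between treated 3 and control 1 was narrow, and the difference of -0.13 ± 0.06 did not pass (n = 3, edgeR adjusted p = 0.351). Hnrnpa2b1 (218 FPKM) and Hnrnpf (211 FPKM) came next in level, with overlapping groups and log2 fold changes of -0.09 ± 0.06 and -0.04 ± 0.08. The remaining hnRNP genes ran from -0.27 (Hnrnpc) to 0.13 (Hnrnpa3).

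**Figure D3:**
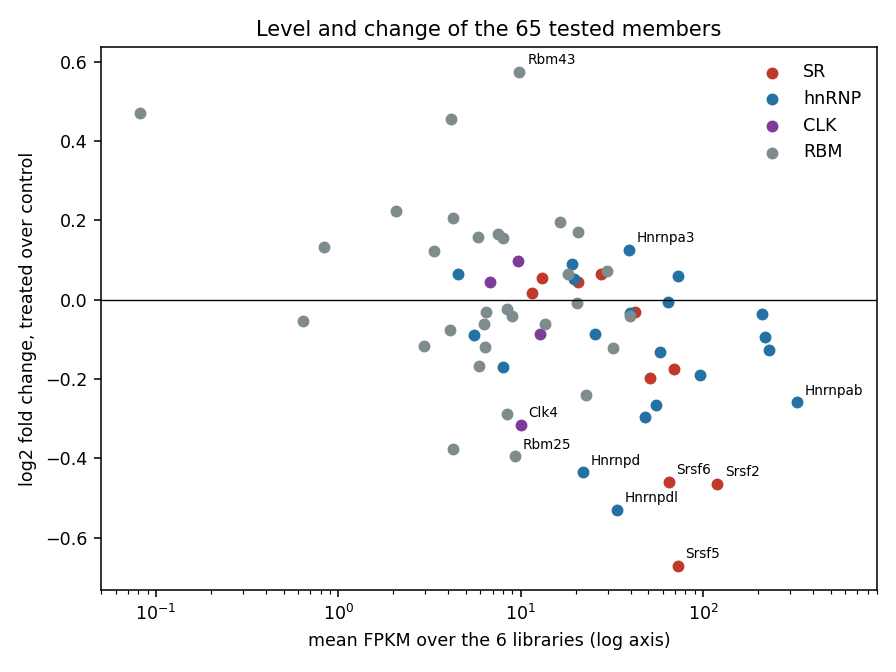
Mean FPKM over the 6 libraries (x axis, log scale) against log2 fold change of treated over control (y axis) for the 65 tested genes, coloured by family. Hnrnpdl and the 3 called SR genes lie at the lower right, and Rbm43 and Rbm4 have the highest values among genes over 1 FPKM, at levels of 9.83 and 4.13 FPKM.

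Of the 33 genes with the higher mean FPKM (16.4 or more) 23 were negative and 4 were called lower. Of the other 32 genes 17 were negative and 1 was called lower. Over all genes tested, 0.249% were called lower. Spearman's rho between mean FPKM and log2 fold change was -0.41 over the 65 genes, which share their libraries and scaling and are not independent.

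None of the 4 kinases passed the threshold by edgeR, DESeq2 or limma-voom, with 1 (Clk4) at an unadjusted p under 0.05. Clk1 (chromosome 1, 58410189 to 58424066) and Clk4 (chromosome 11, 51261730 to 51281200) are close relatives whose activity is known to depend on temperature. Clk4 stood at 61.6, 50.2 and 63.8 CPM in the treated and 63.2, 70.2 and 85.1 CPM in the control libraries. Treated 3 lay above control 1, so the groups overlapped (-0.31 ± 0.13, n = 3, edgeR adjusted p = 0.294). Clk1 stood at 122, 95.5 and 125 CPM against 103, 125 and 136 CPM (-0.09 ± 0.13, edgeR adjusted p = 0.811). Clk2 (chromosome 3, 89164795 to 89176921) stood at 66.9, 47.2 and 65.4 CPM against 52.7, 58.2 and 56.8 CPM (0.10 ± 0.13, edgeR adjusted p = 0.779). Clk3 (chromosome 9, 57750624 to 57765860) stood at 70.02, 60.3 and 67.4 CPM against 61.1, 64.7 and 66.0 CPM (0.04 ± 0.08, edgeR adjusted p = 0.831). Treated 2 had the lowest value of the 6 libraries for each of the 4 kinases, with a family median of -0.30 against the control mean, where treated 1 and 3 had 0.07 and 0.06. Per length the kinases were of like level, from 6.79 FPKM (Clk3) to 12.8 FPKM (Clk1). Clk3 shares 1876 bases with Edc3 on the opposite strand.

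Of 31 tested RBM genes 1 fell (3.23%, against 0.249% of all genes called lower) and 30 did not pass. Their median was -0.02, with 17 negative and 14 positive values. Rbm25, a spliceosome-associated protein, lies on the plus strand of chromosome 12 from 83631236 to 83677898 (ENSMUSG00000010608). It stood at 154, 152 and 167 CPM in the treated and 199, 203 and 219 CPM in the control libraries, without overlap. Rbm25 fell 1.31-fold (-0.39 ± 0.07, n = 3, edgeR adjusted p = 0.0319). Its call held without treated 3 (0.0342). Omitting treated 1 or 2 gave an edgeR adjusted p of 0.066 or 0.14, and omitting control 1, 2 or 3 gave 0.0861, 0.171 or 0.124.

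All treated libraries lay above all controls for 6 RBM genes: Rbm43, Rbm4, Rbm6, Rbm10, Rbm14 and Rbm15b. That is 19.4% of the 31 genes against 12.0% of all genes tested. Rbm15b lies inside Manf on the same strand, sharing 6511 bases, and Manf holds 252% of its count. The sum of those 2 rows was 207, 199 and 193 CPM in the treated and 223, 212 and 205 CPM in the control libraries, so it was not higher in the treated group. Rbm43, on the minus strand of chromosome 2 from 51924448 to 51935163, stood at 37.4, 36.3 and 31.5 CPM against 22.0, 22.1 and 26.6 CPM. Its difference of 0.57 ± 0.11 was the largest positive one and missed the threshold (n = 3, edgeR adjusted p = 0.0505), and it passed without treated 3 (0.0428). Rbm4, a regulator of splicing and translation on chromosome 19, stood at 28.8, 26.5 and 24.9 CPM against 21.4, 19.3 and 17.8 CPM (0.46 ± 0.11, edgeR adjusted p = 0.0921). Its neighbour and near-copy Rbm4b had 0.22 ± 0.11 (edgeR adjusted p = 0.362) with overlapping groups, and the split of reads between the pair is uncertain. Rbm14, also at that locus, had 0.20 ± 0.07 (edgeR adjusted p = 0.238).

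Rbm34, on chromosome 8, stood at 21.1, 20.5 and 20.8 CPM in the treated and 25.0, 27.1 and 29.1 CPM in the control libraries (-0.38 ± 0.09, n = 3, edgeR adjusted p = 0.0983). The treated libraries were within 1 CPM of each other and below all controls. The RBM genes with the highest level per length were Rbm17, a factor that recognises proteins at the 3′ splice site, at 39.9 FPKM, and Rbm39, a relative of the splice site factor U2AF, at 32.2 FPKM. For both the groups overlapped and the threshold was not passed (-0.04 ± 0.06 and -0.12 ± 0.09, edgeR adjusted p = 0.8 and 0.564). Rbm24, which directs splicing in muscle, had 18 counts in treated 1 and 0 in the other libraries and was not tested.

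Hnrnpa3 and Rbm12 were singled out after their values were seen. Hnrnpa3 stood at 249.9, 248 and 252 CPM in treated 1, 2 and 3 and at 53.9, 309 and 324 CPM in controls 1, 2 and 3. Control 1 thus held 21.3% of the median of the other libraries. Among 4629 tested genes with a mean over 50 CPM, Hnrnpa3 was the only one with a library over 2 log2 units from the median of the others while those stayed within 0.6 log2 units. With all libraries its log2 fold change was 0.13 ± 0.53 (edgeR adjusted p = 0.942), and without control 1 it was -0.34 (edgeR adjusted p = 0.0891). The cause was not tested.

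Rbm12 stood at 41.3 CPM in treated 1 and at 64.2 to 71.4 CPM in the other 5 libraries. Its gene shares 20008 bases and its strand with Cpne1, which stood at 96.5 CPM in treated 1 and at 70.2 to 78.6 CPM elsewhere. The sum of both rows was 137.7, 138.1 and 142.8 CPM in treated 1, 2 and 3 and 140.3, 139.8 and 141.9 CPM in controls 1, 2 and 3. The sum thus varied far less than either row. A further row on that strand, Gm28036, stood at 19.2 CPM in treated 2, 6.37 CPM in control 2 and at most 1.13 CPM in the other 4 libraries. The log2 fold change of Rbm12, -0.29 ± 0.17, did not pass (edgeR adjusted p = 0.449).

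**Figure D4:**
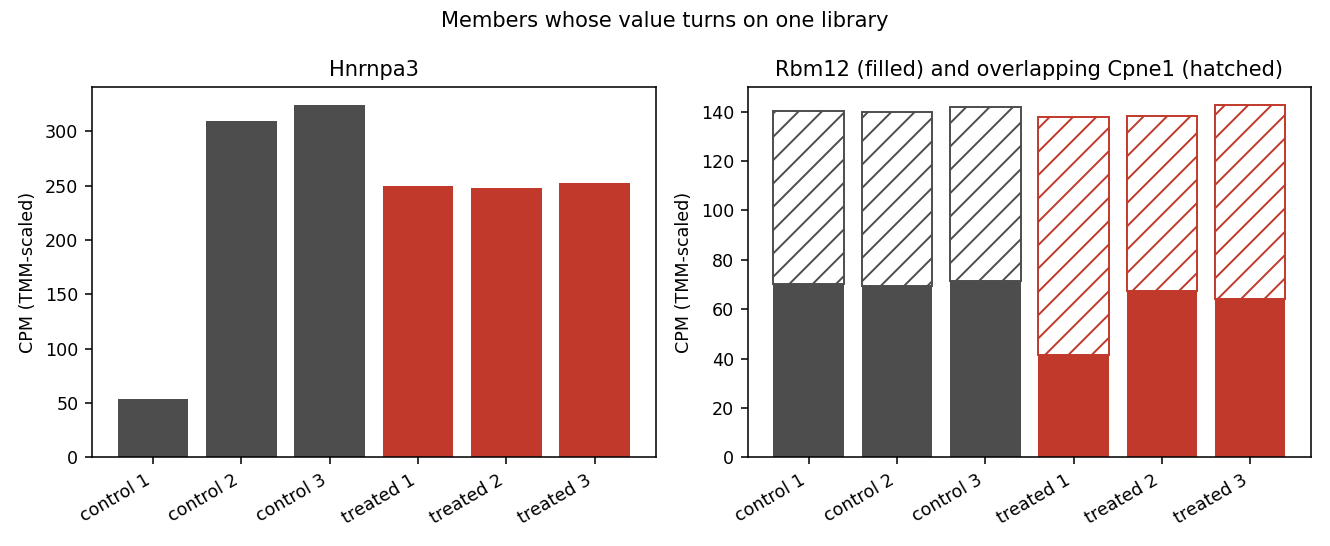
CPM per library (y axes from 0) for Hnrnpa3 on the left and for Rbm12 (filled) stacked with the overlapping Cpne1 (hatched) on the right, controls grey and treated red. Hnrnpa3 in control 1 stands at 53.9 CPM against 248 or more elsewhere, and the stacked bars end between 137.7 and 142.8 CPM.

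Related genes were counted against the shares of all genes called by the same tool. By edgeR these were 0.249% called lower and 1.36% called higher. The shares were 2.41% and 4.95% by DESeq2, 1.06% and 3.33% by weighted and 0.244% and 1.21% by unweighted limma-voom. Of 51 core spliceosome genes none was called by edgeR or unweighted limma-voom, 2 were lower by DESeq2 (Ddx39b and Usp39) and 1 by weighted limma-voom (Ddx39b). At an unadjusted p under 0.05, 9 of the 51 (17.6%) were lower and 2 (3.92%) higher by edgeR, against 6.90% and 9.12% of all genes, and the median was -0.06. The smallest p values were those of Ddx39b, the helicase UAP56 (-0.27 ± 0.05, edgeR adjusted p = 0.056), and Usp39 (-0.27 ± 0.08, 0.168). Of 39 SR-related proteins and SR kinases 2 (5.13%) were lower and 1 (2.56%) higher, with a median of -0.04. Nktr, a cyclophilin with an SR-rich tail, fell from 185, 187 and 196 CPM in the controls to 137, 127 and 147 CPM in treated 1, 2 and 3 (-0.47 ± 0.07, edgeR adjusted p = 0.0202, up to 0.134 with a library left out). Rsrc1 also fell (-0.42 ± 0.08, edgeR adjusted p = 0.0385, up to 0.223), while the kinase Dyrk1b rose 1.75-fold (edgeR adjusted p = 0.0349, up to 0.163). Of 47 tested other splicing regulators 1 (2.13%) was lower and 1 (2.13%) higher, with a median of -0.03. Pspc1, a paraspeckle protein, fell (-0.44 ± 0.08, edgeR adjusted p = 0.0368, up to 0.126 with a library left out), and Rbms2 rose (0.55 ± 0.10, edgeR adjusted p = 0.046, up to 0.223). None of the 15 nonsense-mediated decay genes was called by edgeR, DESeq2 or limma-voom (2 lower and 1 higher at an unadjusted p under 0.05), with Smg8 at 0.28 ± 0.10 and Eif4a3 at -0.18 ± 0.06 (edgeR adjusted p = 0.221 and 0.222).

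Nktr, Dyrk1b, Rsrc1, Pspc1 and Rbms2 each lost their call in at least 4 of the 6 leave-outs. Without control 2, for example, none of the 5 was called. Of 5 tested RNAs in a list of 7 nuclear-retained transcripts, edgeR called 1 (20%) lower, where 0.249% of all genes were. This was Malat1, an abundant RNA of nuclear speckles, which fell to 114, 123 and 126 CPM from 195, 179 and 156 CPM (-0.54 ± 0.09, edgeR adjusted p = 0.0303, up to 0.176 without a library). Log2 fold changes in the list ran from -0.69 to 0.27. The list summed to 342 to 572 CPM in treated and 391 to 559 CPM in control libraries, which overlap.

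Rbm3, kept out of the set by its rule, stood at 632, 628 and 616 CPM in the treated and 681, 689 and 759.6 CPM in the control libraries (-0.18 ± 0.06, edgeR adjusted p = 0.189). Its partner in the cold response, Cirbp, fell from 64.1, 62.1 and 62.2 CPM in the controls to 35.8, 38.5 and 42.0 CPM (-0.70 ± 0.08, edgeR adjusted p = 0.00387, up to 0.0364 with a library left out). Of 12 heat shock genes 6 rose, where 1.36% of all genes did, among them Hspa1a, an inducible HSP70, from 4.08, 4.70 and 5.60 CPM in the controls to 40.9, 59.2 and 21.3 CPM in treated 1, 2 and 3 (edgeR adjusted p = 0.005). Hspa1a was lowest among the treated libraries in treated 3, where the 5 called splicing genes were each highest. Of the cell type marker sums described below, all but those of pigment cells, keratinocytes and B cells were also lowest there. Hspa1a was highest in treated 2, where Srsf2, Srsf6 and Rbm25 were lowest, while Srsf5 and Hnrnpdl were lowest in treated 1. For 2 of these genes treated 1 and 2 were nearly tied, with Rbm25 at 153.8 and 151.7 CPM and Hnrnpdl at 143.0 and 144.4 CPM. The part of either response in the splicing genes was not tested.

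Marker genes of the cell types a tumour can hold were read in the same libraries. Of 12 endothelial markers 6 rose, where 1.36% of all genes did, with the list summing to 443.6 to 471.8 CPM in treated and 345.9 to 365.1 CPM in control libraries. Neutrophil markers summed to 70.6, 25.4 and 7.78 CPM in treated 1, 2 and 3 and to 5.84 to 8.10 CPM in the controls. In the same order, T cell markers summed to 39.1, 35.9 and 26.9 CPM against 39.0 to 53.4 CPM. Red cell markers summed to 1474, 486 and 262 CPM against 98.2 to 249.7 CPM. None was called by edgeR or limma-voom in these 3 lists. At an unadjusted p under 0.05, 6 of 10 neutrophil and 4 of 6 red cell markers were higher by edgeR, against 9.12% of all genes, and 3 of 12 T cell markers were lower, against 6.90%. DESeq2 called 4 neutrophil markers and 1 red cell marker higher and 1 T cell marker lower. It called 4.95% of all genes higher and 2.41% lower. Pigment cell markers summed to 29239 to 31423 against 27815 to 30503 CPM. In treated 1, 2 and 3, macrophage markers summed to 266, 154 and 70.0 CPM (controls 150 to 211). Skeletal muscle markers summed to 166, 30.1 and 3.03 CPM (30.6 to 77.7) and keratinocyte markers to 101, 3.29 and 6.61 CPM (3.93 to 5.39). Fibroblast sums were 550 to 632 against 353 to 645, adipocyte 43.3 to 87.5 against 31.8 to 32.5 and B cell 1.55 to 1.91 against 1.61 to 1.96 CPM. None was called by edgeR. DESeq2 called 1 macrophage marker (Ly6c2) and 1 adipocyte marker (Fabp4) higher, and 4.95% of all genes. Limma-voom weighted by sample quality called Fabp4 higher, and 3.33% of all genes. No listed marker of any cell type in the table was at 0 in all libraries. The part of these cells in the lower splicing factor levels was not tested.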

How the data were processed

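Polyadenylated RNA of 6 mouse tumours was sequenced, per the labels' protocols, after removal of uracil-marked second strands. Per the submitters' processing notes, fastp, StringTie and edgeR were used, and no source used here gives the aligner, genome build, annotation or strand setting. The authors deposited raw counts and FPKM values per gene and library, per the file headers. One FPKM column carries a suffix after the name of control 2. It was used as control 2, since its ratio to the counts was constant within 1% for 99.5% of genes. GENCODE M21 (GRCm38) holds 99.7% of the table's identifiers and gives 90.0% of its genes the same span.

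Counts were fitted in R 4.3.3 with edgeR 4.0.16 (filterByExpr with minimum count 10 and minimum total 15, TMM, glmQLFit and glmQLFTest on group alone, two-sided), which kept 18049 genes. Alternatives used DESeq2 1.42.0, limma 3.58.1, other scalings and filters, each library left out and the replicate number as a block. On simulated data the fit recovered 22 of 50 genes changed 1.5-fold and 32 of 50 changed 2-fold, with 17521 genes tested and 11 false calls. FPKM was used only to compare levels between genes.

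Named were called genes, all CLKs, in each family the 4 with the smallest p and the 2 highest in FPKM, the untested Rbm24 and, of the other splicing lists, called genes and the 2 with the smallest p. Members, lists and tests were chosen with earlier results of these data known, so counts are read only against all genes. Groups came from the library names in the labels. No library pair agreed within sampling noise (chi-square per gene 17.2 to 84.7).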

Additional observations from a re-analysis of the deposited data

How the results depend on the processing

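The 5 genes called lower (Srsf5, Srsf2, Srsf6, Hnrnpdl and Rbm25) remained called under RLE, upper quartile and total-count scaling, limma-voom, and a filter of 1 CPM in all libraries. DESeq2 called 9 members lower and 2 higher, and limma-voom with sample quality weights did the same. The filter of 1 CPM, with fewer genes tested, called 8 lower and 1 higher. Over all genes DESeq2 called 1121 and the weighted limma-voom 792, against 291. With each library left out in turn, the members called lower ran from 0 to 5, those called higher from 0 to 1, and all genes called from 97 to 347, with fewer samples in each fit. The replicate block left 2 members called lower (Hnrnpdl and Srsf5) and 137 genes in all, though same-numbered libraries did not deviate together (correlations of 0.0855, -0.164 and -0.107) and share only a number. Without filterByExpr, Srsf6 alone of the 5 lost its call. With a library left out Clk1 ran from -0.187 to 0.031, turning positive without treated 2 (0.031) and control 3 (0.0078), and Clk2 was -0.020 under weighted limma-voom. None of these passed the threshold. Depth limits Rbm24, with 18 counts in all.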

Other observations

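GENCODE M21 annotates more than 1 kind of transcript for most of the 66 genes, and the counts pool them. Of the 66 genes 34 (51.5%) have a transcript annotated as a target of nonsense-mediated decay and 48 (72.7%) one with a retained intron, against 27.3% and 56.4% of 14177 tested protein-coding genes. The shares were 9 of 10 SR, 10 of 20 hnRNP, 4 of 4 CLK and 11 of 32 RBM genes for decay targets. The 5 genes called lower each have both kinds, as do genes not called, such as Srsf1, Srsf3 and all 4 CLKs. The 66 genes had a median of 7 annotated transcripts, against 5 for the tested protein-coding genes. Srsf5 has 12 annotated transcripts, of which 1 is a decay target and 3 retain an intron, and Rbm25 has 18, with 2 and 6. Whether the balance of such forms differed between the groups cannot be read from counts per gene.

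Of the 66 genes 36 overlap another gene of the table by at least 1 base, 16 of them on the same strand, and for 9 an overlapping row holds at least 10% of the gene's own count. Of the 5 called genes Srsf2 is among these 9.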
